A study of Mus musculus with 4 samples.

Results

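The 10 genes described here carry vascular endothelial growth factor (VEGF) and angiopoietin signalling in the mouse liver. They were chosen by symbol as a known pathway, with earlier results of these data known, and each symbol matched 1 of the 55488 genes counted. They comprise the ligands Vegfa and Vegfc, the VEGF receptors Kdr, Flt1 and Flt4, the co-receptor Nrp1, the angiopoietins Angpt1 and Angpt2, and the receptors Tek and Tie1. VEGF ligands secreted by parenchymal and stromal cells bind receptor tyrosine kinases on endothelium, where they drive vessel growth, survival and permeability. Angiopoietins act on the same cells through Tek, Angpt1 as an activator that stabilises vessels and Angpt2 as an antagonist in many settings. In the liver this exchange between hepatocytes, stellate cells and sinusoidal endothelium is known for maintaining the fenestrated sinusoid and for guiding regeneration.

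Single-cell RNA was sequenced with the 10x 3′ method from the livers of untreated mice, with 1 mouse and 1 library for each of 4 genotypes. WT mice were compared with YAPKO, TAZKO and DKO mice, in which Cre under the albumin promoter deletes floxed Yap, floxed Taz or both in hepatocytes (HCs) and biliary epithelial cells (BECs), so that endothelial cells (ECs), Kupffer cells (KCs), hepatic stellate cells (HSCs) and other non-parenchymal cells keep intact alleles. HCs and non-parenchymal cells were isolated apart and mixed at a set ratio, so that shares of cell types reflect the mixing. The age and sex of these 4 mice are not given in the sources used here. Each value is the number of unique molecular identifiers (UMIs) of a gene summed over the cells of a type in a library and scaled to 1000000 UMIs of the same cells (CPM). Exact 95% Poisson intervals for CPM, and exact binomial ones for log2 ratios to WT, cover counting error only. Counts of members past a ratio include low counts, while the shares of all genes beside them are of genes with at least 100 UMIs. With members held to the same limit, counts for YAPKO, TAZKO and DKO follow in turn, with the share of all genes in brackets. They were 2 (8.5%), 0 (20.9%) and 0 (12%) in ECs, 1 (30.4%), 5 (53.7%) and 1 (42.3%) in HCs and 0 (8.86%), 1 (22.3%) and 1 (11.1%) in HSCs. Because each genotype was 1 library, no difference has a replicate check, no test was made, and all 3 comparisons share the WT library.

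The libraries differed in depth. WT held 66259687 UMIs in 13657 barcodes, YAPKO 85989454 in 7711, TAZKO 49022089 in 14418 and DKO 77411746 in 9188. After removal of barcodes outside the range of 500 to 6000 genes, or above 10% mitochondrial UMIs, 7155 cells of WT, 6275 of YAPKO, 8638 of TAZKO and 8294 of DKO remained. Their median depth was 4618, 7337, 3555.5 and 5952.5 UMIs, so the TAZKO cells were the shallowest and the YAPKO cells the deepest. Any pair of libraries shared between 9 and 26 cell barcodes. The deleted genes were read in HCs first. Yap1 stood at 21.4 CPM in WT (19.3 to 23.6), 4.75 in YAPKO, 46.9 in TAZKO and 4.50 in DKO, low in the libraries labelled with its deletion. Wwtr1, which encodes TAZ, stood at 5.12 CPM in WT (4.15 to 6.25), 13.2 in YAPKO, 2.67 in TAZKO and 2.34 in DKO, again lowest where it was deleted. Whether the counted 3′ ends lie inside the floxed exons is not given in the sources used here. In BECs Yap1 was 39.3, 13.4, 56.7 and 12.7 CPM in WT, YAPKO, TAZKO and DKO, from 24, 6, 17 and 1 UMIs. Wwtr1 in BECs was 68.7 CPM in WT (49.5 to 92.8), 57.9 in YAPKO, 63.4 in TAZKO (38.2 to 98.99) and 25.4 in DKO (3.07 to 91.6), so that its deletion was not seen in the BECs of TAZKO. In ECs Yap1 ranged from 39.8 CPM in WT to 58.9 in TAZKO, and Wwtr1 from 153 CPM in TAZKO to 175 in DKO.

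Vegfa and the receptors were found in different cells. Of the 6014 Vegfa UMIs in kept cells, 82.2% lay in HCs, which were 31.4% of the cells, and 5.89% lay in ECs, which were 22.1%. Receptor UMIs had the opposite distribution, with 67.0% of Kdr, 67.2% of Flt1, 68.4% of Flt4, 67.1% of Tek and 67.3% of Tie1 in ECs. A further 20.7% to 22.3% of the UMIs of these receptors and of Nrp1 lay in 6 clusters without a name, which held 6.85% of the cells. By marker scores these included ECs with T cell markers, ECs with neutrophil markers, plasmacytoid dendritic cells with EC markers, and dividing cells with EC markers next. Mean Scrublet doublet scores there were 0.166, 0.115, 0.114 and 0.227 in turn, against 0.0320 in the largest EC cluster. The remaining clusters scored highest on the erythroid and fibroblast lists. How the receptor UMIs split between these clusters was not read. Ranked by the mean over libraries with at least 50 cells of a type, ECs held the highest level of 7 of the 10 genes.

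Among the ligands, Vegfa (ENSMUSG00000023951), the main growth factor for blood endothelium, averaged 60.9 CPM in HCs (44.3 to 73.6 over the 4 libraries). It reached 149 CPM in the 54 BECs of WT (120 to 183), the only library with at least 50 BECs. Neutrophils at 14.6 CPM and ECs at 9.59 CPM followed, and their ranges over libraries overlapped. Vegfc (ENSMUSG00000031520), the ligand of Flt4 known for lymphatic growth, was highest in HSCs at 38.4 CPM (25.9 to 59.7), ahead of ECs at 12.6 CPM (9.65 to 18.5). The stellate and endothelial ranges of Vegfc did not overlap. Of its 1098 UMIs, ECs held 44.7%, HSCs 21.3%, the clusters without a name 18.6% and HCs 10.5%.

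The VEGF receptors had the same first 3 cell types, ECs, HSCs and the BECs of WT, in this order. Kdr (ENSMUSG00000062960), the principal signalling receptor for VEGFA, averaged 2480 CPM in ECs, 1655 in HSCs, 962 in the BECs of WT and 77.1 in plasmacytoid dendritic cells. Flt1 (ENSMUSG00000029648), which binds VEGFA tightly but signals weakly, averaged 670.4 CPM in ECs and 446 in HSCs. Flt4 (ENSMUSG00000020357), the receptor for VEGFC, averaged 729 CPM in ECs and 443 in HSCs. For each of these receptors the lowest EC library lay above the highest HSC library. The co-receptor Nrp1 (ENSMUSG00000025810), which binds VEGFA and class III semaphorins, averaged 1267 CPM in ECs, 855 in HSCs and 102 in plasmacytoid dendritic cells, and was also found in KCs. There it stood at 61.5, 57.2, 77.3 and 63.2 CPM in WT, YAPKO, TAZKO and DKO, against 8.10, 3.79, 3.24 and 2.06 CPM in B cells.

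Of the angiopoietins, Angpt2 (ENSMUSG00000031465) was highest in ECs at 18.3 CPM (14.8 to 22.3), with BECs of WT at 9.81 and HSCs at 9.51 next and not separable from each other. Angpt1 (ENSMUSG00000022309) had only 285 UMIs in all kept cells. BECs, which were 0.399% of the cells, held 41.8% of them and HSCs 23.5%. Its level in BECs was 93.2 CPM in WT (70.6 to 121), 64.6 in YAPKO (43.3 to 92.8), 86.7 in TAZKO (56.7 to 127) and 88.7 in DKO (35.7 to 183), from 54, 32, 28 and 7 cells, and all 4 intervals overlapped. Tek (ENSMUSG00000006386), the angiopoietin receptor, averaged 438 CPM in ECs and 278 in HSCs. Tie1 (ENSMUSG00000033191), its orphan partner receptor, averaged 241 CPM in ECs and 149.7 in HSCs. The map of the 10 genes over cell types shows the receptors as a block in ECs and HSCs, with Vegfa and Angpt1 outside it.

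**Figure D1:**
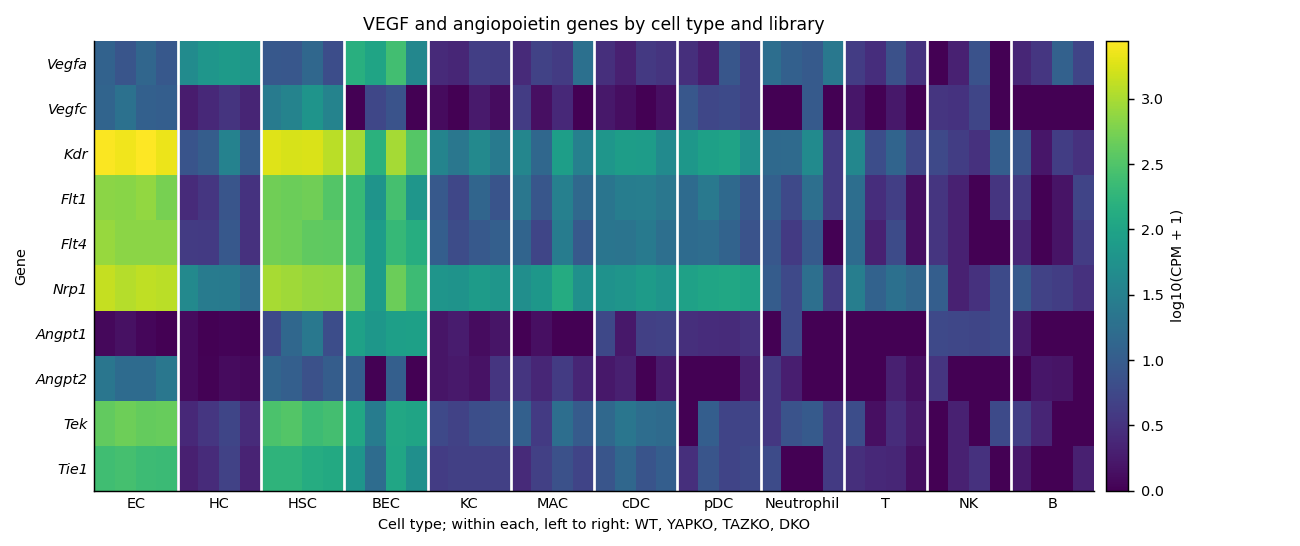
Colour gives log10(CPM + 1) for each of the 10 genes (vertical axis) in 12 cell types (horizontal axis), with WT, YAPKO, TAZKO and DKO from left to right within each type. Kdr is brightest in ECs (mean 2480 CPM), Vegfa in BECs and HCs (149 and 60.9 CPM) and Angpt1 in BECs (93.2 CPM).

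Receptor UMIs in HSCs and BECs came with other endothelial transcripts. All 10 EC markers were detected in HSCs and none was at 0, and their sum was 8616 CPM in WT, 8626 in YAPKO, 6701 in TAZKO and 7055 in DKO, or 67.95%, 71.4%, 56.6% and 58.8% of the sum in ECs. Clec4g was the most abundant of them in WT, YAPKO and DKO and Fcgr2b in TAZKO. Kdr in HSCs stood at 71.0%, 75.4%, 64.1% and 55.7% of its EC level, close to those shares. The number of Nrp1 UMIs per Kdr UMI was 0.523, 0.507, 0.439 and 0.633 in HSCs and 0.522, 0.496, 0.469 and 0.566 in ECs. KCs had 1.78, 2.57, 1.91 and 2.51 Nrp1 UMIs per Kdr UMI and HCs 5.92, 2.72, 0.778 and 1.81, but B cells also had more Nrp1 than Kdr UMIs in WT and YAPKO, at 12 against 10 and 6 against 1, and as many in TAZKO and DKO. In BECs the EC markers stood at 33.2%, 8.85%, 32.0% and 23.9% of their EC sum and Kdr at 36.0%, 6.76%, 34.2% and 15.8% of its EC level. The part of endothelial RNA in these receptor levels was not tested. Vegfc differed from the receptors, at 217%, 182%, 577% and 352% of its EC level in HSCs.

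Nearly every EC carried the main receptor. Kdr was detected in 97.9%, 98.4%, 97.2% and 97.9% of ECs of WT, YAPKO, TAZKO and DKO at median depths of 5227, 7604, 3878 and 5674.5 UMIs, against 1.41%, 0.231%, 1.07% and 0.306% of B cells at 2928, 2868, 2809 and 2162 UMIs. With each cell thinned to 1000 UMIs, which left out 14, 7, 43 and 12 ECs, the shares of ECs were 88.3%, 84.5%, 88.7% and 83.9%. In thinned B cells Kdr was detected in 0.235%, 0%, 0.537% and 0%. At equal depth WT and TAZKO thus had more Kdr-positive ECs than YAPKO and DKO, the same order as in CPM.

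The promoters of these genes were read for short motifs because several of the receptors share their cell types. RefSeq promoter windows (GRCm38.p6, 250 bases before to 50 after a start) were found for 8 of the 10 genes in 9 windows, with none for Angpt1 and Angpt2. The TEAD core GGAATG, the motif of the factors that bind YAP and TAZ, was in 0 of the 9 windows on either strand, against 14.7% of 32851 promoters. The hypoxia response core ACGTG was in 1 window, a second start of Vegfa inside the gene's span, against 19.6% of all promoters. The ETS core CCGGAA was in 1 window, that of Kdr, against 14.9%. Matches are a description of letters and not of bound sites. The sequences shown are the stretch before the outer start of Vegfa, the ligand of HCs, at chr17:46032378-46032627 on the minus strand, with no match, and the surroundings of both matches with the motif in capitals. The ACGTG match lies on the opposite strand at chr17:46025357-46025386, 211 bases before the inner Vegfa start, and the CCGGAA match on the opposite strand at chr5:75978591-75978620, 153 bases before a start of Kdr, which is on the minus strand like Vegfa. The windows of Kdr, Flt1, Nrp1 and Tek also lie inside the span of their gene, like the inner one of Vegfa. All are written 5′ to 3′ on the strand of the gene.
Vegfa, before the outer start: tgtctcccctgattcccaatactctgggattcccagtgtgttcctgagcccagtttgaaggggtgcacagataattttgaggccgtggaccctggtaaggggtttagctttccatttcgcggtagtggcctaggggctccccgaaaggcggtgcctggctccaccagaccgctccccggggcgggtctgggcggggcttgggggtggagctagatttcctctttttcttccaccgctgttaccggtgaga
Vegfa, around the hypoxia response core: ggagtgcgtgccCACGTcagagagcaacat
Kdr, around the ETS core: cgcccggcacagTTCCGGggtagtggggga

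In ECs, which keep intact Yap and Taz, the receptors moved little. Kdr was 2668 CPM in WT (2638 to 2699), 2309.6 in YAPKO (2281 to 2338), 2771 in TAZKO (2734 to 2809) and 2170.3 in DKO (2138 to 2203). It was lower in the YAPKO and DKO libraries, with log2 ratios to WT of -0.21 and -0.30, and at 0.05 in TAZKO, which turned to -0.13 when centred on the median of all genes. Flt1 had the same order, at 699.96 CPM in WT (684 to 716), 666 in YAPKO (651 to 682), 767 in TAZKO (747 to 787) and 548 in DKO (532 to 564). Its log2 ratios were -0.07, 0.13 (turned to -0.05 by the same centring) and -0.35. Flt4 stood highest in WT at 827 CPM and at 694, 705 and 691 in YAPKO, TAZKO and DKO, with log2 ratios of -0.25, -0.23 and -0.26. Nrp1 was likewise highest in WT, at 1392 CPM, and lowest in YAPKO, at 1145. Tek moved the other way, from 408 CPM in WT to 483 in YAPKO, 419 in TAZKO (where centring turned 0.04 to -0.14) and 445 in DKO. Tie1 lay between 225 and 263 CPM. The highest library exceeded the lowest by 1.28 times for Kdr, 1.40 times for Flt1, 1.20 times for Flt4, 1.21 times for Nrp1, 1.18 times for Tek and 1.17 times for Tie1, and none of these 6 genes passed a ratio of 1.5 to WT in any comparison.

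Angpt2 in ECs was 21.3 CPM in WT (18.7 to 24.3), 14.8 in YAPKO (12.7 to 17.3), 14.9 in TAZKO (12.3 to 18.0) and 22.3 in DKO (19.1 to 25.8). The single knockouts were low and the double knockout level with WT on either scale, with log2 ratios of -0.52 (-0.82 to -0.23), -0.51 (-0.85 to -0.18) and 0.06 (-0.23 to 0.35). Vegfa in ECs was 10.9, 7.11, 12.5 and 7.79 CPM in WT, YAPKO, TAZKO and DKO, against 1.35, 2.53, 10.8 and 4.12 CPM in B cells, so that the TAZKO level was close to that of its B cells. Its log2 ratio was -0.62 in YAPKO (-1.05 to -0.20), 0.19 in TAZKO and -0.49 in DKO (-0.95 to -0.04). HC transcripts in ECs had the same split of libraries: all 7 HC markers were detected, none was at 0, Alb was the most abundant, and their sum was 3766, 863, 4283 and 1095 CPM, or 4.47%, 1.17%, 5.39% and 1.65% of the sum in HCs. Their part in the Vegfa values was not tested. Vegfc was 12.0 CPM in WT (9.99 to 14.2), 18.5 in YAPKO (16.1 to 21.2), 10.4 in TAZKO and 9.65 in DKO, high in YAPKO only. Angpt1 was near 0 in ECs, with 2, 5, 1 and 0 UMIs, and its log2 ratio in YAPKO of 1.29 had an interval of -1.32 to 4.68.

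**Figure D2:**
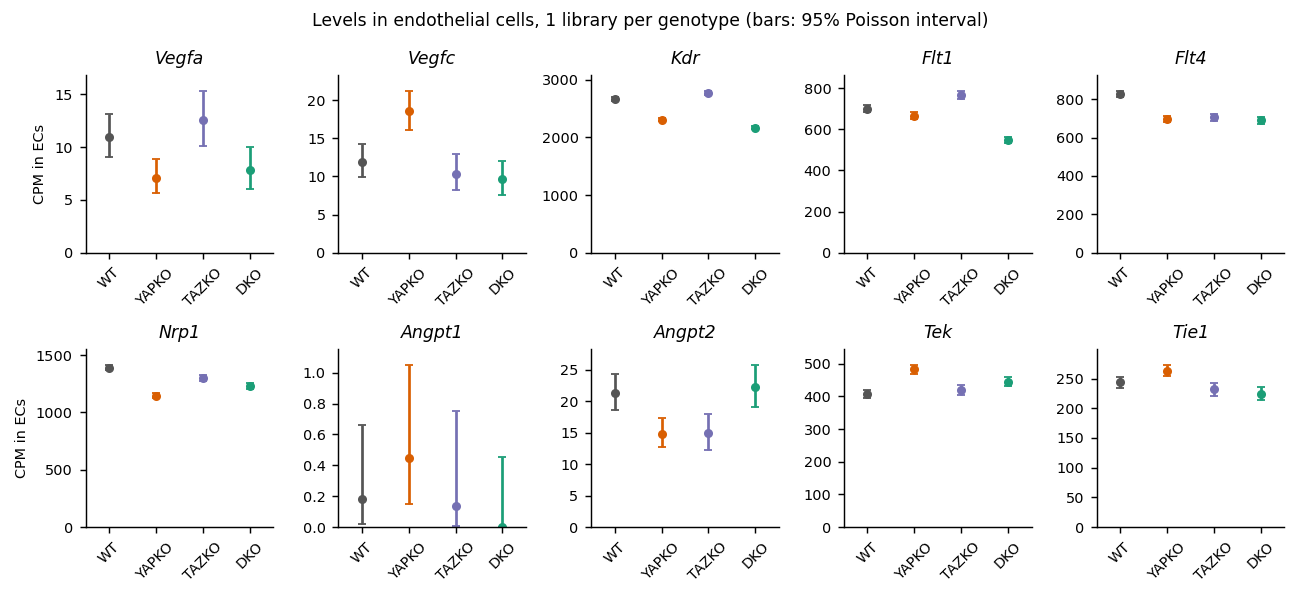
Points give the CPM of each of the 10 genes in ECs (vertical axis, from 0) for WT, YAPKO, TAZKO and DKO, and bars the exact 95% Poisson interval, which covers counting error only. Kdr and Flt1 are lowest in DKO (2170.3 and 548 CPM), Vegfc is highest in YAPKO (18.5 CPM), and Angpt2 is lower in YAPKO and TAZKO (14.8 and 14.9 CPM) than in WT and DKO.

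Counted against a ratio of 1.5, 3 of the 10 genes were past it in ECs of YAPKO, beside 8.5% of the 10248 genes with at least 100 UMIs. Vegfc and Angpt1 were higher, beside 3.88% of all genes, and Vegfa was lower, beside 4.62%. In TAZKO 0 of the 10 were past it, beside 20.9% of all genes (14.1% higher and 6.75% lower), and in DKO also 0, beside 12% (6.03% higher and 5.99% lower). The 9 members with at least 100 UMIs had a median log2 ratio of -0.21 in YAPKO, -0.07 in TAZKO and -0.26 in DKO, and all genes 0.05, 0.18 and 0.06. The Vegfc call in YAPKO lay close to the limit: its log2 ratio of 0.63 was 0.58 after centring, 0.55 with totals without mitochondrial and HC genes, 0.50 with the limits read as UMIs and 0.15 with cells chosen by markers, and in none of these was it past the ratio. The other calls in YAPKO also depended on processing. Vegfa was no longer past the ratio without correction for library and at resolution 0.8. Angpt1 was lower rather than higher with cells chosen by markers and without correction for library. Angpt2 in YAPKO was past it, lower, with the limits read as UMIs and with totals without mitochondrial and HC genes. With centring, which shifts the TAZKO library by 0.18, Angpt2 in TAZKO was also past the ratio. All genes then split into 7.31% higher and 11.7% lower.

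ECs were not uniform in these genes. Clustered again without them, ECs formed 8 subclusters, of which 3 (0, 1 and 6) were led mainly by genes known in endothelium. Glul, Lgals1 and Cst3, which other cell types also express, were among the leading genes of subclusters 0, 1 and 6 in turn. Subclusters 2, 3 and 5 had HC genes such as Alb and Apoa2 among their leading genes. In WT, YAPKO, TAZKO and DKO subcluster 2 held 11.8%, 7.06%, 9.14% and 4.82% of ECs, subcluster 3 7.50%, 3.92%, 13.9% and 5.20%, and subcluster 5 8.59%, 4.13%, 7.89% and 4.59%, more in WT and TAZKO each time. Subcluster 0, with 2509 cells, was led by Msr1, Ly6a and Ntn4, which are on the periportal marker list, although it scored higher on the lymphatic list (0.462 against 0.411), subcluster 1, with 1946 cells, by Kit, Wnt2 and Plpp1 of the pericentral list, and subcluster 6, with 142 cells, scored highest on the lists for periportal and large-vessel ECs and was led by Ednrb, Ly6a and Atp13a3. Vegfc was concentrated in subcluster 6, at 254 CPM in WT (185 to 341), 293 in YAPKO (240.4 to 353), 146 in TAZKO (96.0 to 212) and 144 in DKO (99.1 to 202). In subcluster 0 it was 16.4, 14.3, 11.6 and 9.25 CPM and in subcluster 1 at most 1.90 CPM. Subcluster 6 held 1.46%, 3.06%, 1.73% and 2.71% of the ECs of WT, YAPKO, TAZKO and DKO and supplied 44 of 130, 110 of 206, 27 of 77 and 33 of 78 of their Vegfc UMIs. The larger total in YAPKO thus came with more cells of this subcluster. Within subcluster 6 the log2 ratio of Vegfc in YAPKO was 0.20 (-0.31 to 0.74), and within subcluster 0 it was -0.20 (-0.70 to 0.30). In subclusters 0 and 1 combined it was -0.11, against 0.63 in all ECs. In DKO Vegfc was lower in both places, at -0.83 (-1.51 to -0.18) in subcluster 0 and -0.82 (-1.52 to -0.14) in subcluster 6. In TAZKO it was lower in subcluster 6, at -0.80 (-1.55 to -0.08), and at -0.50 (-1.13 to 0.10) in subcluster 0. Subcluster 4, led by HSC genes such as Dcn and Rgs5, went the other way, with 3, 12, 2 and 9 Vegfc UMIs in WT, YAPKO, TAZKO and DKO and log2 ratios of 2.37 (0.48 to 4.84) in YAPKO and 2.81 (0.80 to 5.33) in DKO.

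The receptors divided between the same subclusters. Kdr was 3057 CPM in subcluster 1 of WT against 2584 in subcluster 0 and 756 in subcluster 6, and this order held in all 4 libraries. Flt4 had the same order, at 938, 769 and 231 CPM in WT, and was down to 87.2 CPM in subcluster 6 of DKO. Nrp1 was lower in subcluster 6, at 699 CPM in WT, than in the other pair, at 1435 and 1439.9 CPM, again in 4 of 4 libraries. Tek was higher in subcluster 6 than in either in 4 of 4, by 1.28 to 1.36 times over subcluster 0. Between subclusters 1 and 0, Vegfa, Kdr, Flt1, Flt4 and Tie1 were higher in the pericentral-type subcluster 1 in all 4 libraries, and Vegfc and Angpt2 in subcluster 0. Angpt2 stood at 30.3, 19.5, 17.4 and 28.4 CPM in subcluster 0 of WT, YAPKO, TAZKO and DKO and at 13.8, 13.0, 10.4 and 16.1 CPM in subcluster 1. Its lower level in the single knockouts was clearest in subcluster 0, with log2 ratios of -0.64 (-1.04 to -0.25) and -0.80 (-1.29 to -0.33). The lower Kdr of YAPKO and DKO was present in both large subclusters, at -0.16 and -0.28 in subcluster 0 and -0.29 and -0.36 in subcluster 1.

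**Figure D3:**
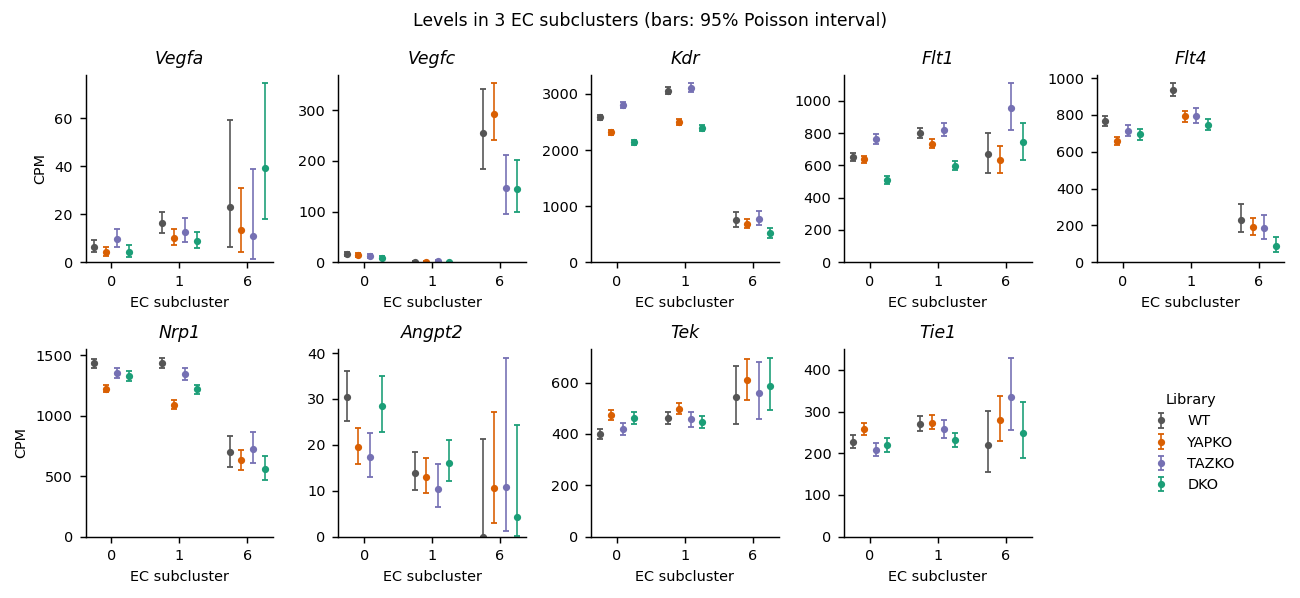
Points give CPM (vertical axes, from 0) in EC subclusters 0, 1 and 6 (horizontal axes) for each library, and bars the exact 95% Poisson interval; Angpt1, with 8 UMIs in all ECs, is left out. Vegfc is high in subcluster 6 (144 to 293 CPM), where Kdr, Flt4 and Nrp1 are lowest, and Angpt2 is higher in subcluster 0 than in subcluster 1 in each library.

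Other genes of the pathway were read from 5 lists. In ECs, among 12 genes known to respond to VEGF or to mark activated endothelium, 1, 2 and 1 were past the ratio upwards in YAPKO, TAZKO and DKO and 4, 4 and 2 downwards. The 8 of them with at least 100 UMIs had 0, 2 and 0 upwards and 2, 2 and 2 downwards, beside 3.88%, 14.1% and 6.03% of all genes with as many UMIs upwards and 4.62%, 6.75% and 5.99% downwards. Esm1, a proteoglycan gene of endothelial tip cells that VEGF induces, was 17.5 CPM in WT, 8.01 in YAPKO, 4.17 in TAZKO and 7.17 in DKO. Nr4a1, an immediate early gene of VEGF signalling, was 13.6, 6.66, 4.44 and 6.68 CPM. Both were lower in all 3 knockout libraries, Esm1 with log2 ratios of -1.13 (-1.51 to -0.76), -2.07 (-2.66 to -1.51) and -1.28 (-1.73 to -0.85) and Nr4a1 with -1.03, -1.62 and -1.03. They were the only listed genes with at least 100 UMIs past the ratio in the same direction in all 3 comparisons in ECs. Since WT is shared, a high WT value would lower all 3 ratios alike. For Nr4a1 in DKO the ratio was no longer past 1.5 times with cells chosen by markers, at -0.54, and without correction for library, at -0.50.

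Among 9 signal transduction genes in ECs, 1, 5 and 2 were higher and 1, 0 and 0 lower. The 6 with at least 100 UMIs had 1, 3 and 1 higher and none lower, beside the same shares of all genes, of which TAZKO had the largest share higher (14.1%). Nos3, the endothelial nitric oxide synthase, stood at 57.2 CPM in WT, 71.0 in YAPKO, 195 in TAZKO and 149.6 in DKO, highest in TAZKO and DKO, with log2 ratios of 0.31, 1.77 (1.63 to 1.91) and 1.39 (1.25 to 1.53). It is named here after its values were seen. Of 7 further receptors and partners, Sema3a was higher in YAPKO and lower in TAZKO and DKO, on 16, 1 and 4 UMIs against 9 in WT, and the rest, with all 5 that had at least 100 UMIs, were within the ratio. Of 12 oxygen-sensing and hypoxia genes 2, 3 and 3 were higher and 0, 1 and 0 lower, low counts included. Of the 9 with at least 100 UMIs 0, 2 and 0 were higher and 0, 1 and 0 lower. Of all genes with as many UMIs, 3.88%, 14.1% and 6.03% were higher and 4.62%, 6.75% and 5.99% lower. Of 4 further ligands in the files none was past it in ECs. The listed symbol Figf, a former name of Vegfd, was not in the files, and Vegfd was. Vegfb, the only one of them well measured, was 58.7, 64.2, 46.2 and 70.5 CPM.

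In HCs, which carry the deletions, Vegfa was higher and Nrp1 lower than WT in all 3 knockout libraries. Vegfa was 44.3 CPM in WT (41.4 to 47.4), 63.2 in YAPKO (59.5 to 67.1), 73.6 in TAZKO (69.2 to 78.2) and 62.6 in DKO (59.8 to 65.4). No knockout interval reached that of WT, and the log2 ratios were 0.51 (0.38 to 0.64), 0.73 (0.60 to 0.86) and 0.50 (0.38 to 0.61). The median of all genes rose on this scale in HCs, by 0.42, 0.60 and 0.46. Relative to those medians Vegfa was at 0.09, 0.13 and 0.03, and it exceeded 62.2%, 60.6% and 52.9% of all genes, near the middle. Vegfa in HCs thus rose by about as much as the median gene.

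The HC class was held by different clusters in the libraries. Cluster 1 held 82.8% of HCs in WT, 50.9% in YAPKO, 59.7% in TAZKO and 64.2% in DKO, and cluster 3 held 16.5%, 45.9%, 30.7% and 30.7%. Cluster 13 held 9.55% of the HCs of TAZKO, with 295 cells there, 11 in WT, 2 in DKO and none in YAPKO, so that cluster 13 and the TAZKO library cannot be told apart. Median depths were 2015, 3680.5, 1356.5 and 4884 UMIs in cluster 1 and 39002.5, 25869, 3083.5 and 21512.5 in cluster 3. Within cluster 1 Vegfa was 15.3 CPM in WT, 7.73 in YAPKO, 55.5 in TAZKO and 11.7 in DKO, so that only TAZKO stood above WT. Within cluster 3 it was 55.1, 74.5, 77.8 and 92.2 CPM, with WT lowest. The direction for YAPKO and DKO therefore differed between the clusters, at log2 ratios of -0.98 and -0.39 in cluster 1.

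A Vegfa UMI was detected in 16.5%, 35.2%, 20.4% and 28.0% of HCs of WT, YAPKO, TAZKO and DKO at median depths of 2144, 5934, 1841 and 6120.5 UMIs. In B cells the shares were 0.235%, 0.924%, 3.03% and 1.22% at 2928, 2868, 2809 and 2162 UMIs. Thinned to 1000 UMIs, leaving out 0, 5, 75 and 35 HCs, the shares in HCs were 2.503%, 5.13%, 6.67% and 4.13%, lowest in WT and highest in TAZKO as in CPM. B cells thinned alike had 0.235%, 0.231%, 1.25% and 0%, again highest in TAZKO.

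Along the lobule, HCs were ranked in each library by the share of pericentral among zonal marker UMIs, which is a range of a score and not a cell type. The third of HCs with the highest share over the third with the lowest gave log2 ratios of Vegfa of 0.31 (-0.03 to 0.66) in WT, -0.03 in YAPKO, -0.04 in TAZKO and 0.07 in DKO, with every interval including 0. In the group with the highest share, the median pericentral share was 11.1% in WT, 16.7% in YAPKO, 46.7% in TAZKO and 23.1% in DKO. Between these groups the periportal gene Cyp2f2 fell only to 0.76 times in WT and YAPKO, against 0.32 in TAZKO and 0.46 in DKO. Kdr had log2 ratios of 0.91, 2.56, 1.18 and 1.91 in turn, and the part of EC RNA was not tested. With position weakly separated in WT and YAPKO, these ratios cannot show whether Vegfa is flat along the lobule. Among HCs with at least 50 zonal marker UMIs the Vegfa ratio in YAPKO was -0.25 (-0.49 to -0.02), lower at the pericentral end, and the intervals of the other libraries included 0. Many HCs had no pericentral UMI at all, 58.5% in WT, 41.2% in YAPKO, 5.28% in TAZKO and 28.0% in DKO, and are tied at the lowest rank, so that in WT and YAPKO the third with the lowest share is a cut among tied cells.

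Nrp1 in HCs was 40.9 CPM in WT (38.1 to 43.9), 25.7 in YAPKO (23.4 to 28.2), 25.3 in TAZKO (22.8 to 28.1) and 16.2 in DKO (14.8 to 17.7). In CPM WT was highest and DKO lowest, with the single knockouts level between them. With HCs thinned to 1000 UMIs, Nrp1 was detected in 1.96% (1.42 to 2.63) of HCs of WT and 1.66% (1.01 to 2.55) of YAPKO. It was detected in 1.79% (1.35 to 2.33) of TAZKO and 0.834% (0.540 to 1.23) of DKO. On that measure only the interval of DKO lay apart from that of WT. B cells thinned alike had 0.235%, 0%, 0.179% and 0% in WT, YAPKO, TAZKO and DKO. The log2 ratios were -0.67 (-0.84 to -0.50), -0.69 (-0.88 to -0.51) and -1.33 (-1.50 to -1.17), and only 1.02%, 2.22% and 1.19% of all genes lay below them. Relative to the medians of all genes they were -1.09, -1.29 and -1.80. In YAPKO and DKO the lower level was present in both main clusters, at 9.83 and 4.33 CPM against 15.3 in cluster 1, and at 29.0 and 23.2 CPM against 50.1 in cluster 3. With the limits of 500 and 6000 read as UMIs the YAPKO ratio was -0.21 and no longer past 1.5 times, and that of DKO was -1.93. In TAZKO the difference was smaller in both and not past the ratio, with Nrp1 at 12.1 CPM in cluster 1, 47.7 in cluster 3 and 19.7 in cluster 13 (88.9 in the 11 cells of WT): the ratio in cluster 3 alone was -0.07, with at most 5% mitochondrial UMIs it was -0.51, and with the limits read as UMIs it turned to 0.20.

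Endothelial transcripts were read beside Nrp1 in HCs. Nrp1 stood at 2.94%, 2.24%, 1.95% and 1.32% of its EC level, against 0.390%, 0.476%, 1.22% and 0.442% for the sum of the 10 EC markers. In Nrp1 UMIs per Kdr UMI, HCs of TAZKO, at 0.778, were closest to the EC ratio. The source of the Nrp1 UMIs in HCs was not tested.

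**Figure D4:**
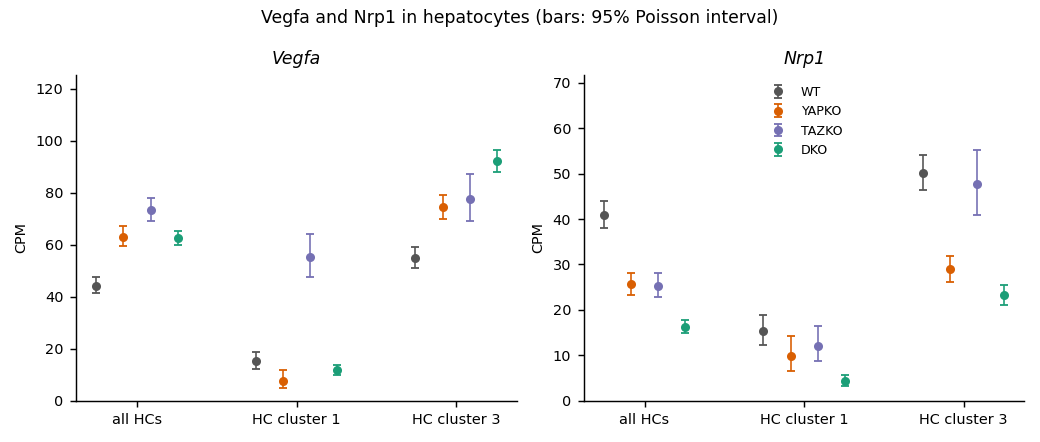
Points give the CPM of Vegfa and Nrp1 (vertical axes, from 0) in all HCs, in HC cluster 1 and in HC cluster 3 for each library, and bars the exact 95% Poisson interval. Vegfa in all HCs is lowest in WT (44.3 CPM) but in cluster 1 is higher than WT only in TAZKO, and relative to the median of all genes its ratios are near 0 (0.09, 0.13 and 0.03); Nrp1 is highest in WT (40.9 CPM) and lowest in DKO (16.2 CPM), with TAZKO near WT in cluster 3.

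The other members averaged lower levels in HCs than Vegfa and Nrp1. Of these, Kdr had 131, 161, 464 and 283 UMIs in WT, YAPKO, TAZKO and DKO. Kdr was 6.91 CPM in WT, 9.45 in YAPKO, 32.5 in TAZKO and 8.96 in DKO, high in TAZKO alone, with a log2 ratio there of 2.23 (1.95 to 2.53). Flt1, Flt4, Tek and Tie1 were also highest in TAZKO, with log2 ratios of 2.07, 1.42, 1.46 and 1.89. The EC markers moved with them: all 10 were detected in HCs of every library, none was at 0, and their sum was 49.5 CPM in WT, 57.5 in YAPKO, 144.9 in TAZKO and 53.0 in DKO, with Clec4g the most abundant in WT and YAPKO and Fcgr2b in TAZKO and DKO. Their part in the receptor ratios was not tested. In cluster 3 of TAZKO Kdr was 93.8 CPM, while in cluster 1 it was 5.76 CPM against 5.34 in WT. Without the 8% of cells with the highest doublet scores, the TAZKO ratio of Kdr was 0.55 and that of Flt1 0.05, Tek and Tie1 were no longer past the ratio of 1.5, and Flt4 was past it in the other direction, lower, as it also was without correction for library. Vegfc had 16, 26, 32 and 41 UMIs, with log2 ratios of 0.85 (-0.10 to 1.85), 1.41 (0.50 to 2.37) and 0.62 (-0.24 to 1.55).

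Against the ratio of 1.5, 5 of the 10 genes were past it in HCs of YAPKO, beside 30.4% of all genes. Vegfc, Tek and Tie1 were higher, beside 29.1%, and Nrp1 and Angpt2 lower, beside 1.22%, Angpt2 on 1 UMI against 5 (log2 ratio -2.17, -7.73 to 0.99). In TAZKO 9 were past it, beside 53.7%. Of these, 7 were higher, beside 50.7%, and Nrp1 and Angpt1 lower, beside 2.98%, Angpt1 on 1 UMI against 5 (log2 ratio -1.91, -7.48 to 1.25). In DKO 3 were past it, beside 42.3%. Vegfc was higher, beside 38.9%, and Nrp1 and Angpt1 lower, beside 3.39%, Angpt1 again on 1 UMI against 5 (log2 ratio -3.06, -8.62 to 0.10). Centred on the median of all genes, the members split into 0 higher and 3 lower in YAPKO, 6 and 2 in TAZKO and 0 and 4 in DKO, and all genes into 5.97% and 5.61%, 12% and 17.1%, and 11.3% and 10%. Nrp1 was lower on either scale, while Vegfc, Tek and Tie1 in YAPKO, Vegfa in TAZKO and Vegfc in DKO were past the ratio on the first scale alone.

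Further pathway genes in HCs are counted over whole lists and then over genes with at least 100 UMIs, of which 29.1%, 50.7% and 38.9% of all were higher in YAPKO, TAZKO and DKO and 1.22%, 2.98% and 3.39% lower. Of 12 oxygen-sensing and hypoxia genes 5, 7 and 7 were higher and 1, 1 and 1 lower, the lower ones being Adm in YAPKO and DKO and Ankrd37 in TAZKO. With at least 100 UMIs 4 of 8, 7 of 9 and 6 of 10 were higher and none lower. Of 9 signal transduction genes 5, 5 and 7 were higher and 1, 0 and 1 lower, and with at least 100 UMIs 4, 2 and 4 of 6 were higher and 1, 0 and 1 lower. Epas1, a hypoxia-inducible factor, was 29.9 CPM in WT, 53.4 in YAPKO, 58.4 in TAZKO and 58.6 in DKO, lowest in WT. The prolyl hydroxylase genes Egln2 and Egln3, which mark these factors for degradation, were lowest in WT too, Egln2 at 26.9, 44.3, 42.4 and 47.7 CPM and Egln3 at 2.48, 4.23, 5.40 and 6.91 CPM. Pfkfb3, a glycolytic regulator, was 2.16, 5.99, 6.87 and 11.1 CPM, with log2 ratios of 1.47, 1.67 and 2.36, but with the limits read as UMIs its ratio in YAPKO was -0.63, from 4 UMIs against 12. The adaptor gene Shb was 11.5, 27.9, 23.99 and 25.8 CPM and Plcg1, which Kdr activates, 5.49, 8.57, 13.3 and 9.79 CPM. Relative to the medians of all genes, Epas1 was at 0.42, 0.37 and 0.51, Egln2 at 0.30, 0.06 and 0.36, Egln3 at 0.35, 0.53 and 1.01 and Pfkfb3 at 1.049, 1.07 and 1.89. Shb was at 0.86, 0.46 and 0.70 and Plcg1 at 0.22, 0.68 and 0.37. On that scale Pfkfb3 stayed past the ratio in all 3 comparisons, Shb in YAPKO and DKO, Egln3 in DKO and Plcg1 in TAZKO, and Epas1 and Egln2 in none. Of 7 further receptors and partners 2, 5 and 1 were higher and none lower, of 12 responding endothelial genes 4, 7 and 5 were higher and 0, 0 and 1 lower, and of 4 further ligands 1, 0 and 2 were higher and none lower. With at least 100 UMIs 0 of 2, 3 of 3 and 1 of 4 further receptors and partners were higher, 2 of 3, 1 of 2 and 2 of 3 responding genes, and of the ligands only Vegfb in DKO, with none lower. The EC markers in HCs described above were also highest in TAZKO, and their part in these receptor and responding gene counts was not tested.

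In HSCs, neighbours of the ECs along the sinusoid, Vegfc rose in TAZKO and Angpt1 in both single knockouts, while Vegfb was lower in TAZKO and DKO. Vegfc was 25.9 CPM in WT (19.7 to 33.4), 33.8 in YAPKO (25.6 to 43.8), 59.7 in TAZKO (46.4 to 75.7) and 33.9 in DKO (25.2 to 44.7). Only the TAZKO interval lay apart from WT, with a log2 ratio of 1.21 (0.68 to 1.73), against 0.38 and 0.39 in YAPKO and DKO, whose intervals included 0. Angpt1, the activating ligand of Tek, was 4.83, 13.1, 22.8 and 5.43 CPM, from 11, 22, 26 and 8 UMIs in 278, 138, 172 and 130 cells. It was high in both single knockouts, with log2 ratios of 1.43 (0.33 to 2.63) and 2.24 (1.17 to 3.41), and in DKO at 0.17 (-1.35 to 1.62). With the limits read as UMIs the YAPKO value was no longer past 1.5 times, at 0.58 from 1 UMI against 4. In HSCs below the median share of EC marker UMIs of their library, Vegfc in TAZKO was at 1.18 and Angpt1 in YAPKO and TAZKO at 1.17 and 2.11. Kdr in HSCs was 1896 CPM in WT, 1741 in YAPKO, 1776 in TAZKO and 1209 in DKO, lowest in DKO, where its log2 ratio was -0.65 (-0.73 to -0.57). The receptors in HSCs came with the EC markers described above, and their ratios are given with that limit. The share of these markers also differed between libraries and was lowest in TAZKO. The cut at each library's own median does not make it equal, and its part in the Vegfc and Angpt1 ratios was not tested. At resolution 0.8 only 104, 51, 88 and 74 cells were named HSCs. Vegfc in TAZKO and Angpt1 in YAPKO and TAZKO were still past the ratio there.

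Past the ratio of 1.5 in HSCs was 1 of the 10 genes in YAPKO, beside 8.86% of 6036 genes (4.72% higher and 4.14% lower), and this was Angpt1, higher. In TAZKO 4 were past it, beside 22.3%. Vegfa, Vegfc and Angpt1 were higher, beside 13.3%, and Angpt2 lower, beside 9.03%, at 6.15 CPM against 12.3 on 7 UMIs against 28, with an interval of the log2 ratio of -2.44 to 0.23. In DKO 1 was past it, Kdr, lower, beside 11.1% (6.22% higher and 4.84% lower). Kdr in DKO was at -0.55 without the 8% of cells with the highest doublet scores, -0.54 at resolution 0.8 and -0.50 with the limits read as UMIs, and then no longer past the ratio. Vegfa in HSCs rested on 18, 13, 15 and 8 UMIs, and its ratio in TAZKO of 0.74 had an interval of -0.35 to 1.81. All genes had medians of 0.03, 0.11 and 0.04, and centred on 0.11 in TAZKO they split into 8.86% higher and 13% lower while the members kept 3 higher and 1 lower. Of the 5 lists in HSCs, the oxygen-sensing list had 1, 1 and 2 genes higher and 0, 1 and 1 lower, the signal transduction list 0, 3 and 3 higher and 3, 0 and 0 lower, and the responding list 0, 4 and 0 higher and 2, 1 and 1 lower. The receptor and partner list had 0, 0 and 0 higher and 1, 0 and 1 lower, and of the further ligands Vegfb was lower in TAZKO and DKO. With at least 100 UMIs the oxygen-sensing list had 0, 0 and 0 higher and 0, 0 and 1 lower, the signal transduction list 0, 1 and 1 higher and 1, 0 and 0 lower, the responding list 0, 3 and 0 higher and 1, 0 and 1 lower, and the receptor and partner list none.

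**Figure D5:**
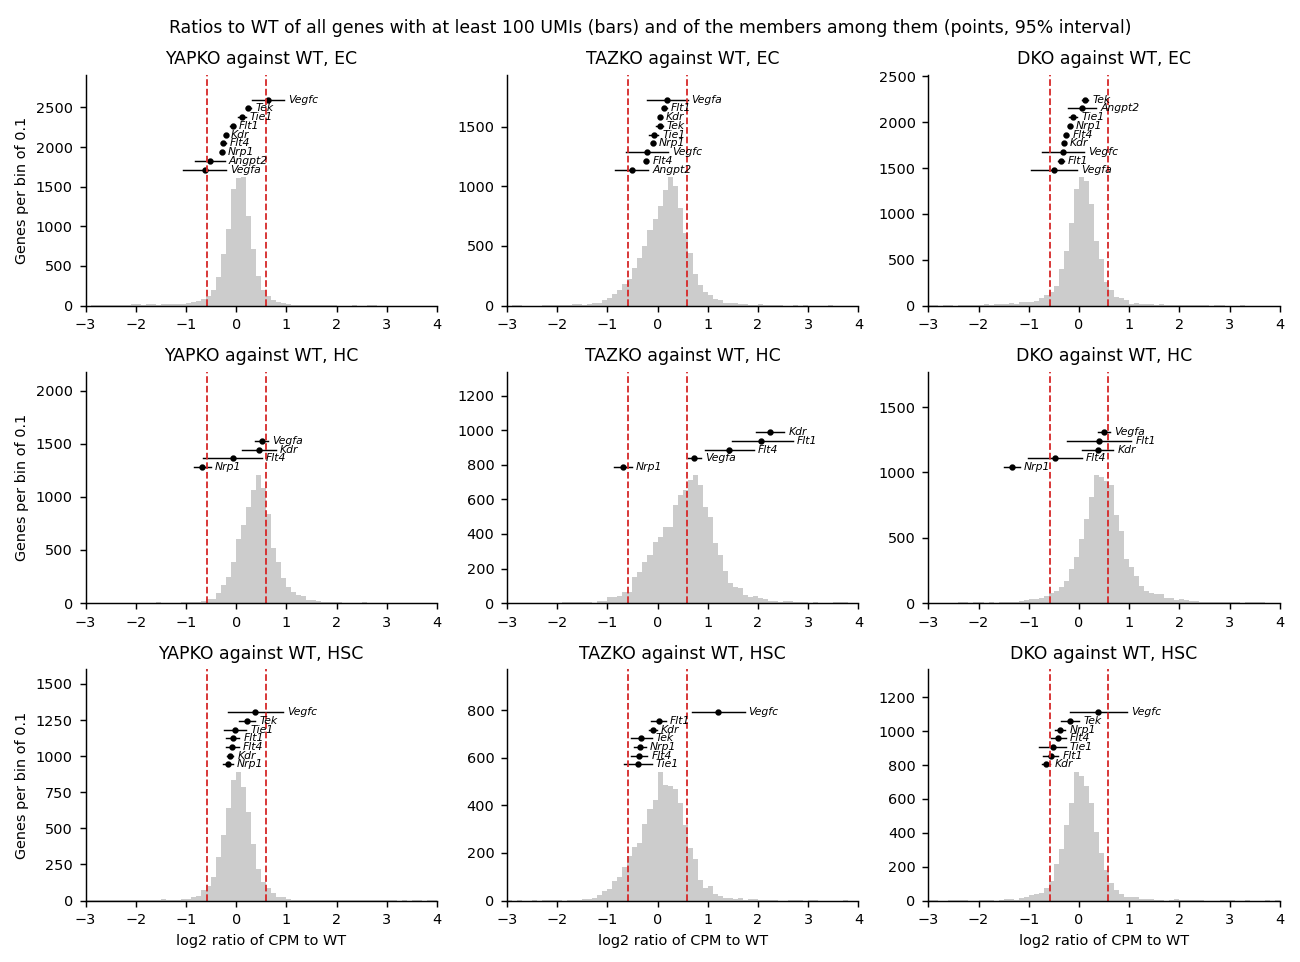
Grey bars count genes with at least 100 UMIs by log2 ratio of CPM to WT (horizontal axes) in bins of 0.1, for ECs, HCs and HSCs in rows and YAPKO, TAZKO and DKO in columns; points are the members among them with 95% intervals, stacked by rank, and dashed lines mark a ratio of 1.5. In ECs Kdr lies between -0.30 and 0.05 (in TAZKO its sign changes to -0.13 after centring), and in HCs Nrp1 lies left of nearly all genes (-0.67, -0.69 and -1.33) while Vegfa lies near their middle.

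Vegfa in BECs, where the deletion of Wwtr1 in TAZKO was not seen, was 149 CPM in WT (120 to 183), 100.3 in YAPKO (73.2 to 134), 254 in TAZKO (199.8 to 317) and 38.0 in DKO (7.84 to 111), from 91, 45, 76 and 3 UMIs. TAZKO was highest and DKO lowest, but the numbers of cells, 54, 32, 28 and 7, were small in the knockouts.

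The genes closest in pattern to each member were named by the Pearson correlation of log2(CPM + 1) over 45 pairs of cell type and library with at least 50 cells, among 14706 genes. The pairs share libraries and depth, and the values are a description. Kdr was closest to Ptprb (0.988), Eng (0.986) and Timp3 (0.984), Flt1 to Egfl7 (0.985), Eng and Cavin2, and Flt4 to Mmrn2 (0.985), Timp3 and Ptprb. Nrp1 had lower values, with Eng, Plxnd1 (0.943) and Stard8 (0.942). Tek was closest to Adam23 (0.976), Aqp1 and F8, Tie1 to Cyyr1 (0.978), Afap1l1 and Id4, and Angpt2 to Layn (0.942), Colgalt2 and Id4. Vegfa was closest to Gstm1 (0.854), Bche and Clmn, and Vegfc to Pcgf3 (0.852), Acvr2a and Hdx. Angpt1, with the fewest UMIs, had the lowest value, with Rab27b (0.794), Pkia and Dcdc2a.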

How the data were processed

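Livers of 4 mice, 1 per genotype, were measured by 10x 3′ v3.1 single-cell RNA-seq. The authors deposited 1 matrix of raw UMI counts per library, aligned to mm10, with Cell Ranger 6.0.1 per the submitters' processing notes and 4.0.0 in the matrix headers. Barcodes with 500 to 6000 genes and at most 10% mitochondrial UMIs were kept. The study's methods state these limits for transcripts, and the reading as UMIs was an alternative. Counts were log-normalized, cell cycle scores regressed out, and 2000 variable genes and 20 components used without the 10 members and the pathway genes. Components were corrected by library with an own implementation of Harmony and clustered by Louvain (20 neighbours, resolution 0.4; ECs 15 components and 0.3). Clusters were named from markers by a score threshold set after seeing the data. It left 6 of 22 clusters without a name, with 5.39%, 8.10%, 6.01% and 8.03% of the cells of WT, YAPKO, TAZKO and DKO. Doublets were not removed. Scrublet scores (scanpy 1.11.5) served an alternative without the top 8%.

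UMIs were summed per type and library and scaled to CPM, with exact Poisson, conditional binomial and Clopper-Pearson 95% intervals. Past the ratio means at least 1.5 times higher or lower, with more than 3 UMIs in either library and a count of 0 set to 3 UMIs (no call where this bound points away from the count), and is read against all genes with at least 100 UMIs. Ratios, intervals and calls were tested on Poisson counts simulated from WT profiles, and Harmony and clustering on simulated points. Such counts hold no variation between cells or mice, so the test checks the arithmetic and not the spread of these data. All 10 members were named. Pathway genes were named where past the ratio in 1 direction in all 3 comparisons with at least 100 UMIs, and like genes were the 3 highest correlations among genes with at least 200 UMIs. Members and lists were chosen with earlier results of these data known. Python 3.11.15, numpy 2.4.6, scipy 1.17.1, pandas 2.3.3, scikit-learn 1.9.0, statsmodels 0.14.6, igraph 0.11.9 and matplotlib 3.10.9 were used. Alternatives covered cell limits, mitochondrial share, totals, centring, doublet scores, cell choice, correction, resolution, the ratio and low counts. Protein, histology and serum data were not analysed here.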

Additional observations from a re-analysis of the deposited data

How the results depend on the processing

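Of 112 alternative values of the main counts and levels, 77 stayed within their limits and 35 moved, and of 722 for single genes 547 stayed, 172 moved and 3 reversed. The cause was not tested in any of them. A count of members was taken as moved when it was not within 1.5 times the first count, and smaller shifts, such as from 3 to 2 in ECs of YAPKO, from 9 to 6 in HCs of TAZKO or to another gene at the same count, are among those that stayed. Numbers of members past the ratio of 1.5 moved as follows, with the share of all genes past it in the same setting in brackets. Centred on the median of all genes they were 1 in ECs of TAZKO (19%), 3 in HCs of YAPKO (11.6%) and 2 in HSCs of DKO (11.2%). With cells chosen by markers they were 1 in ECs of TAZKO (20.8%), 2 in ECs of DKO (12.3%) and 3 in HSCs of YAPKO (9.03%). Without Harmony correction they were 2 in ECs of both TAZKO (21.7%) and DKO (12.9%). No HSC class was formed there, so HSCs gave no value. At resolution 0.8 they were 1 in ECs of both TAZKO (21.1%) and DKO (12.2%) and 4 in HSCs of YAPKO (11.3%). With a ratio of 2 they were 1 in ECs (3.49%) and 1 in HCs (6.57%) of YAPKO. In HSCs they were then 2 in TAZKO (5.35%) and 0 in DKO (3.46%). With the limits read as UMIs they were 1 in HCs (55.3%) and 2 in HSCs (27%) of YAPKO and 2 in HSCs of DKO (22.1%). With at most 5% mitochondrial UMIs, HCs of DKO had 5 (42.8%). Without the top 8% of Scrublet scores, HCs of TAZKO had 5 (50.7%). With members of at least 100 UMIs only, HCs had 1 in YAPKO (30.4%), 5 in TAZKO (53.7%) and 1 in DKO (42.3%). HSCs had 0 in YAPKO (8.86%) and 1 in TAZKO (22.3%) under the same limit. With totals without mitochondrial and HC genes, HSCs of DKO had 3 (11.1%). Alternatives chosen after seeing the data moved further counts. In EC subclusters 0 and 1 alone there were 1 in YAPKO (7.33%), 1 in TAZKO (19.7%) and 2 in DKO (10.9%). In HC cluster 1 alone there were 4 in TAZKO (61%) and 5 in DKO (69.5%). YAPKO had 5 there (60%), of which only Nrp1 was among the 5 of all HCs. In HC cluster 3 alone there were 8 in DKO (37.5%). In HSCs low in EC markers there were 2 in both YAPKO (12.2%) and DKO (14.2%). Vegfa in DKO, between the tenth of HCs with the highest pericentral share and the tenth with the lowest, had a log2 ratio of 0.65, but 28.0% of these HCs have no pericentral UMI and are tied, so the lower end is an arbitrary cut and the value carries nothing. The 3 reversals, counted where the first ratio was past 1.5 times, were Vegfc in ECs of YAPKO at -0.11 in subclusters 0 and 1, and, with the limits read as UMIs, Pfkfb3 in HCs of YAPKO at -0.63 and Nrp1 in HCs of TAZKO at 0.20. Ratios not past it also changed sign, such as Vegfa in HC cluster 1, at -0.98 in YAPKO and -0.39 in DKO. Among members called but not followed singly in that type, Flt4 in HCs of TAZKO went from higher to lower without the top 8% of Scrublet scores, without Harmony and in HC cluster 1, and Angpt1 in ECs of YAPKO with cells chosen by markers and without Harmony. The 7 members highest in ECs with summed UMIs, and the 7 in a single order between EC subclusters 1 and 0, did not move under their alternatives. No paired analysis was possible because the groups share only 1 replicate number and no test was made. Depth limits Angpt1, Angpt2 and Vegfc most, with 285, 1115 and 1098 UMIs in all kept cells, and the BECs of the knockouts, with at most 32 cells. Genotype, mouse, library and depth cannot be told apart here.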

Other observations

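Macrophages (MACs), plasmacytoid and conventional dendritic cells and T cells also had more Nrp1 UMIs per Kdr UMI than ECs in each library. For WT, YAPKO, TAZKO and DKO conventional dendritic cells had 0.898, 0.765, 0.991 and 1.38, and T cells 0.742, 2, 1.49 and 2.92. In MACs Nrp1 stood at 48.8 CPM in WT (37.4 to 62.6), 65.4 in YAPKO (58.7 to 72.8), 129.9 in TAZKO (103.9 to 160.4) and 52.7 in DKO (45.04 to 61.3), highest in TAZKO, from 133, 434, 102 and 440 cells. Their Nrp1 UMIs per Kdr UMI were 1.32, 4.94, 1.54 and 1.73, against 0.469 to 0.566 in ECs, while B cells had 12 against 10, 6 against 1, 6 against 6 and 2 against 2. Endothelial transcripts in MACs were also highest in TAZKO: all 10 EC markers were detected, none was at 0, Fcgr2b was the most abundant, and their sum was 3.56%, 3.63%, 5.90% and 3.27% of that in ECs. Kdr in MACs was 37.0, 13.2, 84.6 and 30.4 CPM, and its part beside Nrp1 was not tested. In plasmacytoid dendritic cells Nrp1 was 92.4, 106, 112 and 97.0 CPM, with all 4 intervals overlapping, and the ratio to Kdr was 1.40, 1.18, 1.14 and 1.78.

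Vegfb, a further VEGF ligand that binds Flt1, fell outside the rule for naming pathway genes and is described for its values alone. In HCs it was 13.4 CPM in WT (11.8 to 15.2), 19.1 in YAPKO (17.1 to 21.3), 17.8 in TAZKO (15.7 to 20.1) and 34.7 in DKO (32.6 to 36.8), highest in DKO, the only library past the ratio of 1.5, with a log2 ratio of 1.37 (1.17 to 1.57), beside a median of all genes of 0.46 and 38.9% of them higher. In KCs it was 16.8 CPM in WT, 16.97 in YAPKO, 6.36 in TAZKO and 19.6 in DKO, low in TAZKO alone, and in HSCs 76.9, 62.9, 39.5 and 46.8 CPM. In TAZKO it was also past the ratio, lower, in MACs, T cells and NK cells, on 4, 31 and 4 UMIs against 20, 34 and 9, and within it in ECs, at -0.35. Vegfb was past it in other libraries too, lower in NK cells of YAPKO and neutrophils of DKO and higher in B cells of DKO. The MAC and NK calls in TAZKO rest on 4 UMIs each. In HSCs 9.03% of all genes were lower in TAZKO and 4.84% in DKO. No share of all genes is given here beside the calls in KCs and the other immune cells. In TAZKO 20.9%, 53.7% and 22.3% of all genes were past the ratio in ECs, HCs and HSCs. No replicate stands behind these values.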
